A study of Homo sapiens with 12 samples.

Results

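The genes described here are 10 negative feedback inhibitors of mitogen-activated protein kinase (MAPK) signalling, chosen by name from the 57736 genes of the count files. They comprise 6 dual-specificity MAPK phosphatase genes (DUSP1, DUSP4, DUSP5, DUSP6, DUSP8 and DUSP10) and 4 genes of the Sprouty and SPRED family (SPRY2, SPRY4, SPRED1 and SPRED2). HepG2 cells are a human liver cancer line and Ls174 cells a human colon cancer line. Both were kept for 24 h without treatment (control) or with an extract of the red seaweed Hypnea musciformis (HME). The labels give HME as 0.7 mg/ml, whereas the methods of the study state a slightly higher concentration. Both lines were labelled wild type and, by the methods, were maintained in the same serum-containing medium. The medium of the profiled cultures during the 24 h is not stated there, and other assays of the study gave HME in medium without serum. From each line and condition 3 libraries, described in the methods as biological triplicates, gave 12 libraries. Each tissue is represented by a single line, so that a difference between HepG2 and Ls174 cells cannot be told apart from a difference between liver and colon cancer. It was asked how the 10 genes responded to HME in each line, whether the responses differed and how untreated cells of both lines differed.

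MAPK cascades (ERK, JNK and p38) carry signals from receptors and stress to the nucleus, and the kinases are active only while both a threonine and a tyrosine of their activation loop are phosphorylated. Dual-specificity phosphatases remove both phosphates, whereas Sprouty and SPRED proteins act upstream and restrain signalling between receptor tyrosine kinases, RAS and RAF. Transcription of many of these inhibitors is itself induced by MAPK signalling, which makes them feedback inhibitors.

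Libraries were made from the 3′ ends of polyadenylated transcripts, so that long and short transcripts give counts on the same footing, and levels are given as CPM, counts scaled to the size of each library and comparable over all 12 libraries. A library held between 1790841 (HepG2 HME 3) and 3656662 (HepG2 control 1) counts, and a floor of 3 counts corresponds to between 0.82 and 1.68 CPM. Because whole cultures were lysed, fewer cells of a type and less RNA per cell cannot be told apart. Summed markers matched the labelled lines, while single markers departed from the sums. The sum of 10 hepatocyte markers was between 15325 and 23672 CPM in HepG2 and between 23.9 and 184 CPM in Ls174 libraries. HNF4A, at 23.0 and 58.0 CPM, made up nearly all of it in Ls174 controls 1 and 2. The sum of 10 intestinal epithelial markers was between 277 and 432 CPM in Ls174 and between 70.0 and 216 CPM in HepG2 libraries. Of these, KRT20 was at 0 in Ls174 control cells. VIL1 was at 187, 52.6 and 167 CPM in HepG2 controls, against 42.0, 78.7 and 66.7 CPM in Ls174 controls. Blood cell markers summed to at most 554 CPM in HepG2 libraries, of which LYZ gave up to 548 CPM with PTPRC and CD3E at 0 in all libraries, and to at most 4.58 CPM in Ls174 libraries, and the 9 endothelial markers found summed to at most 21.4 CPM.

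Some libraries stood apart from their replicates. The counts of HepG2 control 2 differed from those of the other HepG2 controls by a chi-square per degree of freedom of 54.1 and 49.1, against 13.6 between those others, and Ls174 control 1 by 34.5 and 37.0, against 5.68. In HepG2 HME 2 alone the collagen genes COL1A1 and COL1A2 reached 548 and 405 CPM, against at most 6.02 and 3.21 CPM in the other libraries. The summed level of 10 mesenchymal markers was 959 CPM there, between 4.01 and 16.7 CPM in the other HepG2 libraries and at most 5.09 CPM in Ls174 libraries, with COL6A3, DCN and TWIST1 at 0 in all HepG2 HME libraries. Ls174 control 3 held liver transcripts, with ALB at 44.8, AFP at 32.8 and APOB at 27.7 CPM against 0 in Ls174 controls 1 and 2, and its hepatocyte marker sum was 184 CPM against 23.9 and 58.3 CPM. In Ls174 HME 1 the sum was 94.2 CPM, with ALB at 16.3 CPM. The part of these transcripts in the results was not tested, and results are also given without single libraries.

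In HepG2 cells the HME libraries lay above the control libraries for all 10 feedback inhibitors, and 6 of them rose by the test, among them DUSP5 (49.2-fold) and DUSP1 (12.8-fold). With edgeR and Benjamini-Hochberg adjustment over 11343 genes, 6 of the 9 genes that could be tested (DUSP1, DUSP5, DUSP6, DUSP8, SPRY2 and SPRED1) had an adjusted p under 0.05, all of them higher with HME. Of all genes tested, 3.31% passed this threshold and 2.77% passed it with a higher level. At the thresholds used in the study (p under 0.05 before adjustment, with an absolute log2 fold change over 0.58), all 9 passed, against 22.2% of all genes tested. The HME and control libraries did not overlap for 30.8% of the genes tested. The median log2 fold change of the 9 genes was 2.60, against -0.04 over all genes tested. These counts and this median describe the 9 genes and no more, because DUSP4, DUSP5 and SPRY4 passed the filter on low counts through the HME group alone and DUSP10 did not pass it. DUSP8, SPRY2 and SPRED1 also passed it only with HME libraries counted in, since not every control library of theirs reached the filter's minimum. Without HepG2 control 2 and HME 2 together, 7 of the 9 genes tested had an adjusted p under 0.05. Over all genes 701 of 11619 did in that fit, against 375 with all 6 libraries. Without control 1 or control 3 alone 3 of the feedback inhibitors did, where 248 and 155 did over all genes. Without HME 2 or HME 3 alone 2 did (DUSP1 and DUSP5 in both cases), with 142 and 95 over all genes. Without HME 1 or control 2 alone 4 and 7 did, with 144 and 921 over all genes.

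**Figure D1:**
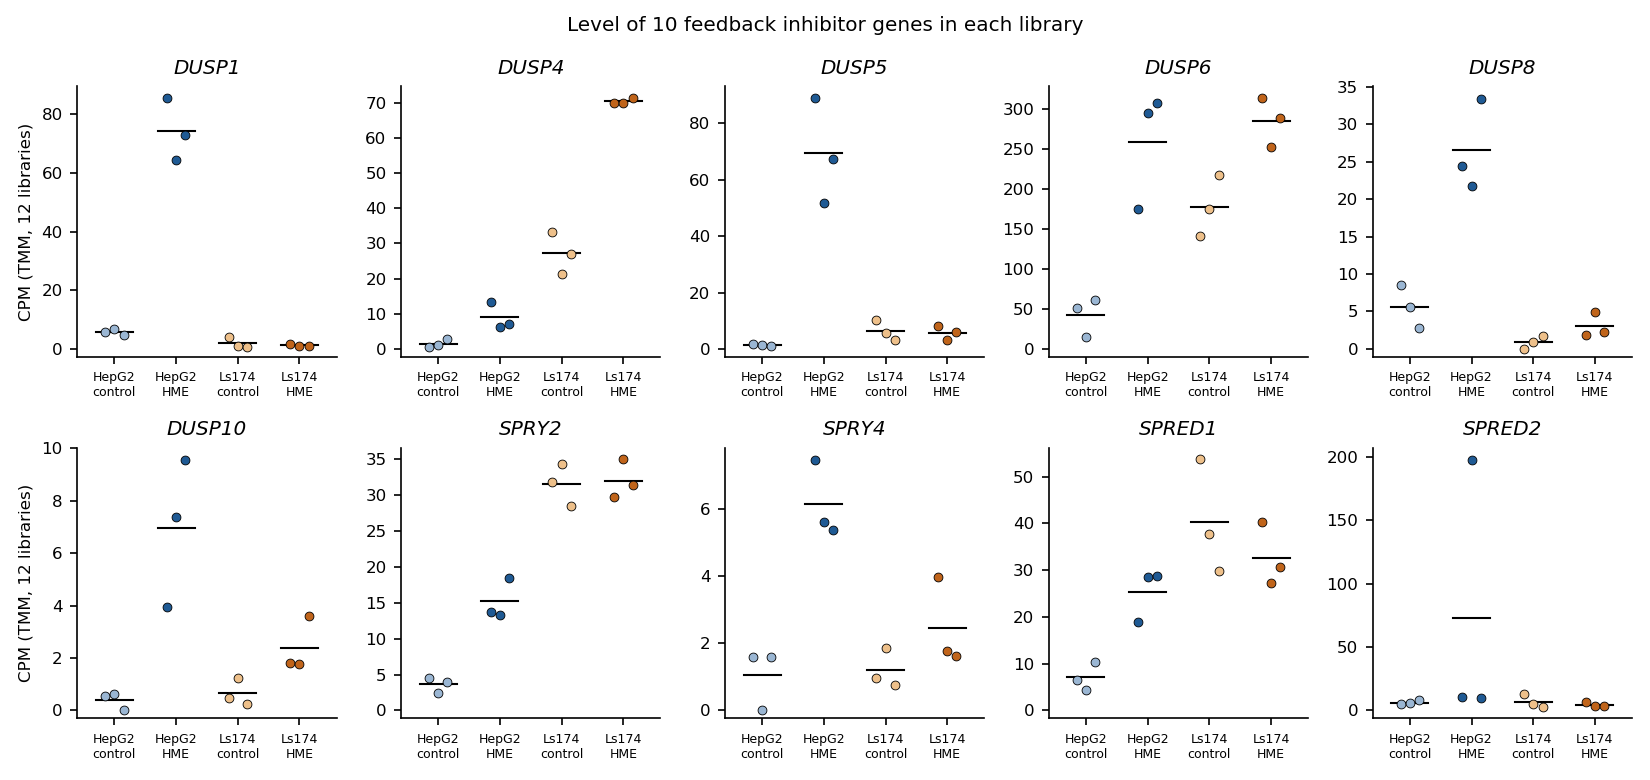
Level of each of the 10 feedback inhibitor genes in CPM (y axis, linear, a scale for each gene) in the 3 libraries (points) of each of 4 groups (x axis), with the group mean as a line. All HepG2 HME points lie above the HepG2 control points for every gene, DUSP4 is highest in HME-treated Ls174 cells, and the mean of SPRED2 in HME-treated HepG2 cells is set by 1 library at 198 CPM.

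DUSP1, DUSP4 and DUSP5 encode phosphatases of the nucleus, where DUSP5 acts on ERK, DUSP4 on ERK and JNK, and DUSP1 on p38 and JNK as well as ERK. The level of DUSP1 was 5.88, 6.81 and 4.82 CPM in the 3 HepG2 control libraries and 85.3, 64.3 and 72.8 CPM in the 3 HME libraries. The lowest HME library was far above the highest control, and the log2 fold change was 3.68 (SE 0.35, edgeR adjusted p = 0.00128). DUSP5 was measured at 1.60, 1.24 and 1.20 CPM (6, 2 and 3 counts) in control and at 88.9, 51.6 and 67.5 CPM in HME libraries. It thus went from near the floor to the range of DUSP1, with a log2 fold change of 5.62 (SE 0.43, edgeR adjusted p = 0.00062). Both genes stayed under an adjusted p of 0.05 without any of the 6 libraries, the log2 fold change lying between 3.55 and 3.83 for DUSP1 and between 5.42 and 5.81 for DUSP5. DUSP4 was low in HepG2 cells, at 0.53, 1.24 and 2.81 CPM in control and 13.4, 6.32 and 7.16 CPM in HME libraries. The groups did not overlap, but the log2 fold change of 2.60 (SE 0.65) had an edgeR adjusted p of 0.0624. Without any 1 library it was not called (adjusted p between 0.0562 and 0.210), and the log2 fold change moved to 3.45 without control 3. It was called by DESeq2 (adjusted p = 0.0119) and without control 2 and HME 2 together (edgeR adjusted p = 0.0443).

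The counts of DUSP1 came from 1 region at the 3′ end of the gene (chr5:172194896-172195764, hg19, minus strand), those of DUSP5 from 1 region at chr10:112270185-112271499 (plus strand), and the regions ran over the end of the last exon and 203 and 208 bases past it. In the 250 bases before the start site, taken from RefSeq promoters of GRCh38.p14 that cover 8 of the 10 genes with 12 promoters (DUSP4 and DUSP5 had no entry), DUSP1 and DUSP8 held the cAMP response element TGACGTCA, the motif bound by CREB and ATF factors. These promoters are shown because no other promoter of the 8 genes held any of the 4 motifs searched on both strands, with the element in capitals, 5′ to 3′ on the gene's strand.
DUSP1 (chr5:172771196-172771445, minus strand): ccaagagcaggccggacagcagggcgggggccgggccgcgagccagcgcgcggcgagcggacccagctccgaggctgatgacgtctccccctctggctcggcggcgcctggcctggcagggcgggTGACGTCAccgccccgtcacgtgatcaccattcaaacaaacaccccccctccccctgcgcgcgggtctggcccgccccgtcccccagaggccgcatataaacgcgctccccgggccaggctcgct
DUSP8 (chr11:1572272-1572521, minus strand): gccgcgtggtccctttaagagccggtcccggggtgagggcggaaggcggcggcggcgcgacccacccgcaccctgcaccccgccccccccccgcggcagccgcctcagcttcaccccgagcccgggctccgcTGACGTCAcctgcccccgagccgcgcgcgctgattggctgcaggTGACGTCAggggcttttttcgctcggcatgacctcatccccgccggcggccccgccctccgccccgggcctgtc
The element ended 117 bases before the start site in DUSP1, and 110 and 66 bases before it in DUSP8, which held 2 copies. Of 35116 promoters searched in this way, 1.65% held TGACGTCA. The AP-1 motif TGANTCA (6.57% of promoters), the ETS motif CCGGAAG (8.52%) and the CArG box (1.16%) were not found in these windows of the 8 genes, and TGACGTCA is not itself a match to any of them. A match is a description of the letters and was not tested as a binding site.

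DUSP6, the cytoplasmic phosphatase specific for ERK, gave the highest counts of the 10 genes. Its level was 51.3, 15.5 and 61.4 CPM in HepG2 control and 175, 294 and 307 CPM in HME libraries, so that control 2 was the lowest control and HME 1 the lowest HME library, still above every control. The log2 fold change was 2.62 (SE 0.49, edgeR adjusted p = 0.0197). It lay between 2.27 and 2.95 without any 1 library, while the adjusted p rose to 0.0563 without control 1, 0.0695 without HME 2 and 0.0904 without HME 3.

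DUSP8 and DUSP10 encode phosphatases that prefer JNK and p38. DUSP8 was measured at 8.55, 5.57 and 2.81 CPM in HepG2 control and at 24.4, 21.8 and 33.4 CPM in HME libraries, without overlap. The log2 fold change was 2.20 (SE 0.45, edgeR adjusted p = 0.0294), and without control 3, HME 1, HME 2 or HME 3 the adjusted p was 0.0775, 0.0917, 0.0740 or 0.134. DUSP10 was too low for the filter, with 2, 1 and 0 counts in control and 10, 21 and 16 counts in HME libraries. The summed counts of 47 against 3 correspond, after scaling, to a ratio of 17.4 with an exact 95% interval from 5.60 to 87.4, which covers counting error only.

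Of the 4 Sprouty and SPRED genes, SPRY2 and SPRED1 rose in HepG2 cells by the edgeR test. SPRY2, an inhibitor of receptor tyrosine kinase signalling at the membrane, was measured at 4.54, 2.48 and 4.02 CPM in HepG2 control and at 13.8, 13.3 and 18.5 CPM in HME libraries. All HME libraries were above all controls, with a log2 fold change of 2.00 (SE 0.41, edgeR adjusted p = 0.0320). SPRED1, which brings the RAS inactivator neurofibromin to the membrane, was measured at 6.41, 4.33 and 10.4 CPM in control and at 18.9, 28.4 and 28.7 CPM in HME libraries. Again the groups were apart, with a log2 fold change of 1.84 (SE 0.40, edgeR adjusted p = 0.0398). Neither call held without control 1, control 3, HME 1, HME 2 or HME 3. The adjusted p of SPRY2 was between 0.0662 and 0.149 and that of SPRED1 between 0.0573 and 0.160 in these fits, whereas the log2 fold change stayed between 1.86 and 2.17 and between 1.74 and 2.19. Scaling by library size alone gave adjusted p values of 0.0575 and 0.0650, and with the replicate block that of SPRY2 was 0.0554. SPRY4, a relative of SPRY2, was at 1.60, 0 and 1.61 CPM in control and at 7.47, 5.62 and 5.37 CPM in HME libraries, with a log2 fold change of 2.33 (SE 0.65, edgeR adjusted p = 0.0831). The groups did not overlap, and DESeq2 called SPRY4 (adjusted p = 0.0317). Without any 1 library edgeR did not call it (adjusted p between 0.0573 and 0.234).

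SPRED2 differed from the other genes in that 1 library carried its change. Its level was 5.08, 5.57 and 8.03 CPM in HepG2 control and 10.2, 198 and 10.1 CPM in HME libraries, and the log2 fold change was 3.56 (SE 1.09, edgeR adjusted p = 0.103). Of the counts of SPRED2 in all libraries, 84.9% fell in the region chr2:65571133-65571653 (hg19, minus strand), where the annotation places the end of the alternative transcript SPRED2-204 and no exon of the canonical transcript. This region held 552 counts in HepG2 HME 2 and between 3 and 26 in the other libraries. At the 3′ end of the canonical transcript (chr2:65537788-65540638) the counts were 13, 2 and 17 in HepG2 control and 19, 11 and 11 in HME libraries, and these ranges overlap. Without the alternative region the log2 fold change was 0.60 (edgeR adjusted p = 0.579), and without HME 2 it was 0.74 (adjusted p = 0.517). HME 2 is also the library with high COL1A1 and COL1A2 levels, and the part of either in the other was not tested.

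**Figure D2:**
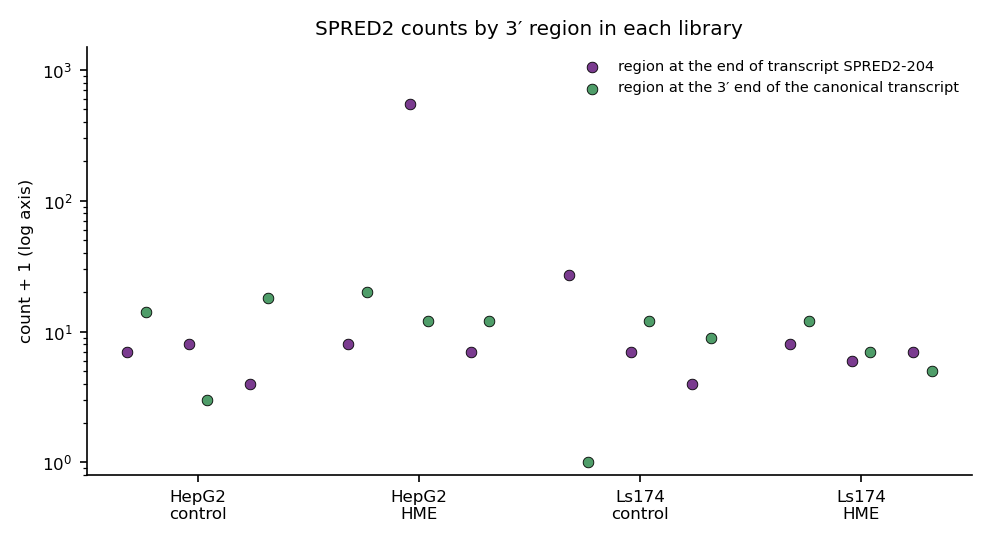
Counts of SPRED2 plus 1 (y axis, log scale) in each of 12 libraries, grouped by line and treatment (x axis), for the region at the end of transcript SPRED2-204 (purple) and the region at the 3′ end of the canonical transcript (green). The purple point of HepG2 HME 2 at 552 counts lies above all other points, which are at most 26 counts.

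In Ls174 cells DUSP4 rose and no other feedback inhibitor passed the test. Of the 10 genes, 6 could be tested (DUSP4, DUSP5, DUSP6, SPRY2, SPRED1 and SPRED2), and 1 had an adjusted p under 0.05, where 1.18% of 11319 genes tested did. At the study's thresholds DUSP4 and DUSP6 passed, against 12% of genes tested. The HME and control libraries of the same 2 of the 6 genes did not overlap, against 23.8% of genes tested. Over all 10 genes those of 4 did not overlap, since the HME libraries of DUSP8 and DUSP10, both too low to be tested, also lay above the controls. The median log2 fold change of the 6 was -0.06, where that of all genes tested was -0.00287.

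DUSP4 was measured at 33.2, 21.3 and 27.0 CPM in Ls174 control and at 69.9, 70.0 and 71.2 CPM in HME libraries. The 3 HME libraries lay close together and above all controls, with a log2 fold change of 1.37 (SE 0.23, edgeR adjusted p = 0.0348). The call rested on all libraries but Ls174 control 1, since the adjusted p was 0.138 and 0.113 without control 2 and control 3, and 0.165, 0.274 and 0.223 without HME 1, HME 2 and HME 3, at log2 fold changes between 1.22 and 1.38. It was also lost with the replicate block (adjusted p = 0.153) and in 1 fit of all 12 libraries (adjusted p = 0.112). DUSP6 was at 141, 174 and 217 CPM in control and at 313, 252 and 288 CPM in HME libraries, without overlap, and its log2 fold change of 0.67 (SE 0.22) had an adjusted p of 0.225.

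No other gene passed the test in Ls174 cells. DUSP5, which rose most in HepG2 cells, was at 10.3, 5.55 and 3.31 CPM in control and at 7.97, 3.18 and 5.88 CPM in HME libraries, and the groups overlapped (log2 fold change -0.14, SE 0.57, edgeR adjusted p = 0.935). SPRY2 was at 31.8, 34.2 and 28.5 CPM in control and at 29.7, 34.99 and 31.4 CPM in HME libraries, again overlapping (log2 fold change 0.02, SE 0.21). SPRED1 and SPRED2 had log2 fold changes of -0.30 (SE 0.29) and -0.56 (SE 0.64), and of the 3 Sprouty and SPRED genes tested with edgeR none had an unadjusted p under 0.05 and DESeq2 called none. DUSP1, DUSP8, DUSP10 and SPRY4 were too low to be tested, with 14, 10, 6 and 11 counts summed over the control and 11, 26, 21 and 21 counts over the HME libraries.

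**Figure D3:**
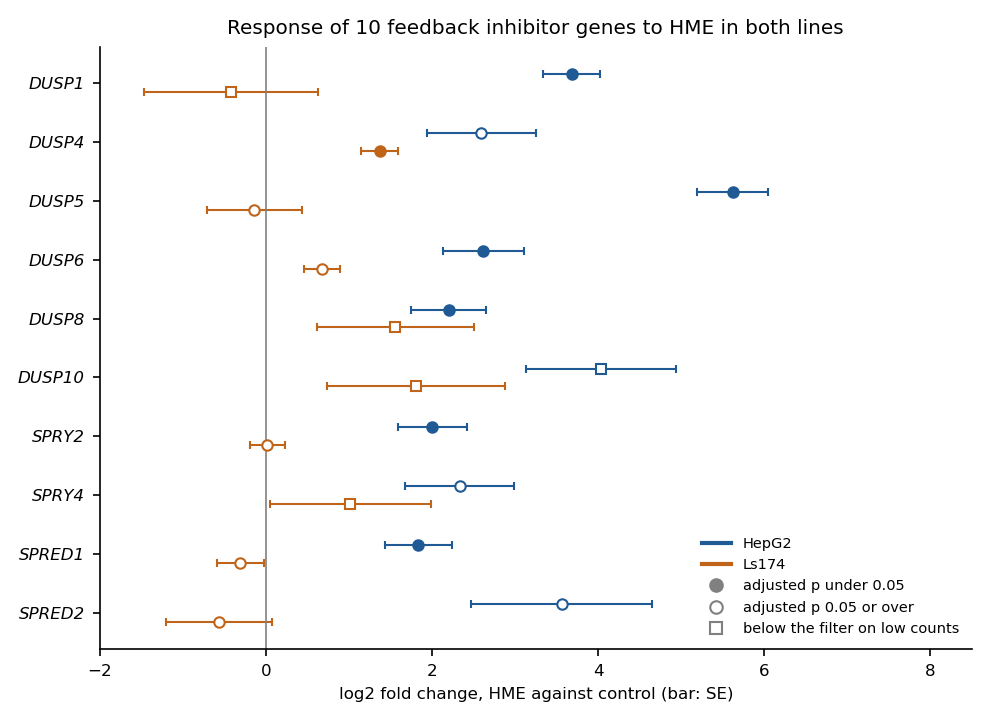
Log2 fold change of HME against control (x axis, with SE bars) of the 10 genes (y axis) in HepG2 (blue) and Ls174 cells (orange), with filled circles for an adjusted p under 0.05, open circles for a larger one and open squares for genes below the filter on low counts, taken from a fit of all genes with at least 1 count. In HepG2 cells all values lie right of 0, and in Ls174 cells those of DUSP1, DUSP5, SPRED1 and SPRED2 lie left of it.

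The difference between the lines was tested directly as the interaction of line and treatment over 13040 genes, of which 0.644% had an adjusted p under 0.05. All 10 feedback inhibitors had a lower log2 response in Ls174 than in HepG2 cells, with a median difference of -2.03, where all genes tested had a median of 0.04. This count and this median describe the 10 genes and no more. DUSP10 and SPRY4 had 47 and 44 counts over the HepG2 HME libraries and at most 21 over any other group, and the SPRED2 difference rests on 1 library. The difference passed the test for DUSP5 and DUSP1. For DUSP5 it was -5.71 (SE 0.69, edgeR adjusted p = 0.000985), and it passed in all 12 fits that left out 1 library. For DUSP1 it was -4.01 (SE 0.76, edgeR adjusted p = 0.0276), from responses resting on 14 and 11 counts in Ls174 control and HME libraries. Without any 1 of 8 libraries the DUSP1 difference no longer passed, namely HepG2 control 1, control 3 and the 3 HME libraries (adjusted p between 0.0510 and 0.0851) and the 3 Ls174 HME libraries (between 0.0636 and 0.115). Without Ls174 control 1, whose 3.91 CPM was the highest DUSP1 level in that line, the difference was -3.10 (adjusted p = 0.0488).

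The differences of SPRY2 (-1.95, SE 0.43, edgeR adjusted p = 0.0615) and SPRED1 (-2.11, SE 0.51, adjusted p = 0.0832) did not pass with edgeR and did with DESeq2 (adjusted p = 0.00396 and 0.00680), as did that of DUSP6 (-1.90, edgeR adjusted p = 0.159, DESeq2 0.0275). SPRY2 also passed without Ls174 control 1 (adjusted p = 0.0464). For DUSP4, the gene that rose in Ls174 cells, the difference was -1.22 (SE 0.63, adjusted p = 0.429), so that a difference between the responses of the lines was not shown. For SPRED2 it was -4.08 with all counts and -0.25 without the alternative region.

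Before treatment, several feedback inhibitors were higher in Ls174 than in HepG2 cells. Of the 6 genes tested, 4 had an adjusted p under 0.05 and all 4 were higher in Ls174 cells, where 23.5% of 11907 genes tested passed and 9.33% passed with a higher level. These were DUSP4 (log2 difference 4.13, SE 0.62, edgeR adjusted p = 0.00128), SPRY2 (3.02, SE 0.42, adjusted p = 0.000857), SPRED1 (2.46, SE 0.45, adjusted p = 0.00368) and DUSP6 (2.03, SE 0.49, adjusted p = 0.0150). All 4 stayed under 0.05 without any of the 6 control libraries, although DUSP4, which passed the filter through Ls174 cells alone and had 2, 2 and 7 counts in HepG2 controls, moved to 4.98 without HepG2 control 3. DUSP1 had a difference of -1.78 (SE 0.72, adjusted p = 0.112), and without Ls174 control 1 the difference was -2.75 with an adjusted p of 0.0110. DUSP8 was below the filter in this comparison, with 48 counts over the HepG2 and 10 over the Ls174 controls. SPRY2 and SPRED1 passed the filter only with Ls174 libraries counted in, since not every HepG2 control reached its minimum. The count of 4 of 6 therefore describes the genes tested and no more. This comparison shares its control libraries with the comparisons of HME and with their interaction, so that a high control level and a small response are not independent measurements.

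The order of the 4 groups therefore differed between genes. For SPRY2 and SPRED1, HME-treated HepG2 cells, at 15.2 ± 2.87 and 25.3 ± 5.59 CPM (SD, n = 3), stayed below the mean of Ls174 control cells, at 31.5 ± 2.88 and 40.4 ± 12.2 CPM. The libraries of these groups did not overlap for either gene, although for SPRED1 they came close (at most 28.7 against at least 29.8 CPM). For DUSP6 the level of HME-treated HepG2 cells (259 ± 73.1 CPM) overlapped that of Ls174 cells with and without HME (284 ± 31.0 and 178 ± 38.1 CPM). DUSP4 stood in the order HepG2 control (1.53 ± 1.17 CPM), HepG2 HME (8.95 ± 3.85), Ls174 control (27.2 ± 5.98) and Ls174 HME (70.4 ± 0.73), and no neighbours in it overlapped. DUSP1, DUSP5, DUSP8, DUSP10 and SPRY4 were highest in HME-treated HepG2 cells, where DUSP1 had 74.1 ± 10.6 CPM and DUSP5 69.3 ± 18.7 CPM, and no library of the other groups exceeded 10.3 CPM for DUSP5 or 8.55 CPM for DUSP8.

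The makeup of the phosphatase counts differed between the groups, described here without a test. Summed over the 6 phosphatase genes, HepG2 control libraries had 57.5 ± 23.1 CPM and HME libraries 445 ± 53.7 CPM (SD, n = 3), and Ls174 libraries 214 ± 32.0 and 367 ± 32.3 CPM. DUSP6 supplied between 50% and 84.1% of the phosphatase counts in HepG2 control libraries, between 44.7% and 66.0% with HME, and between 74.7% and 86.8% in Ls174 libraries. The share of DUSP5 was 2.34%, 4% and 1.65% in HepG2 control and 22.8%, 11.6% and 13.6% in HME libraries. DUSP4 made up between 10.4% and 17.6% of the phosphatase counts in Ls174 control and between 17.6% and 21.0% in Ls174 HME libraries, and at most 4% in HepG2 libraries. The 3 genes SPRY2, SPRY4 and SPRED1 summed to 11.8 ± 4.67 CPM in HepG2 control and 46.7 ± 6.24 CPM in HME libraries, and to 73.1 ± 13.8 and 67.2 ± 5.80 CPM in Ls174 libraries.

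**Figure D4:**
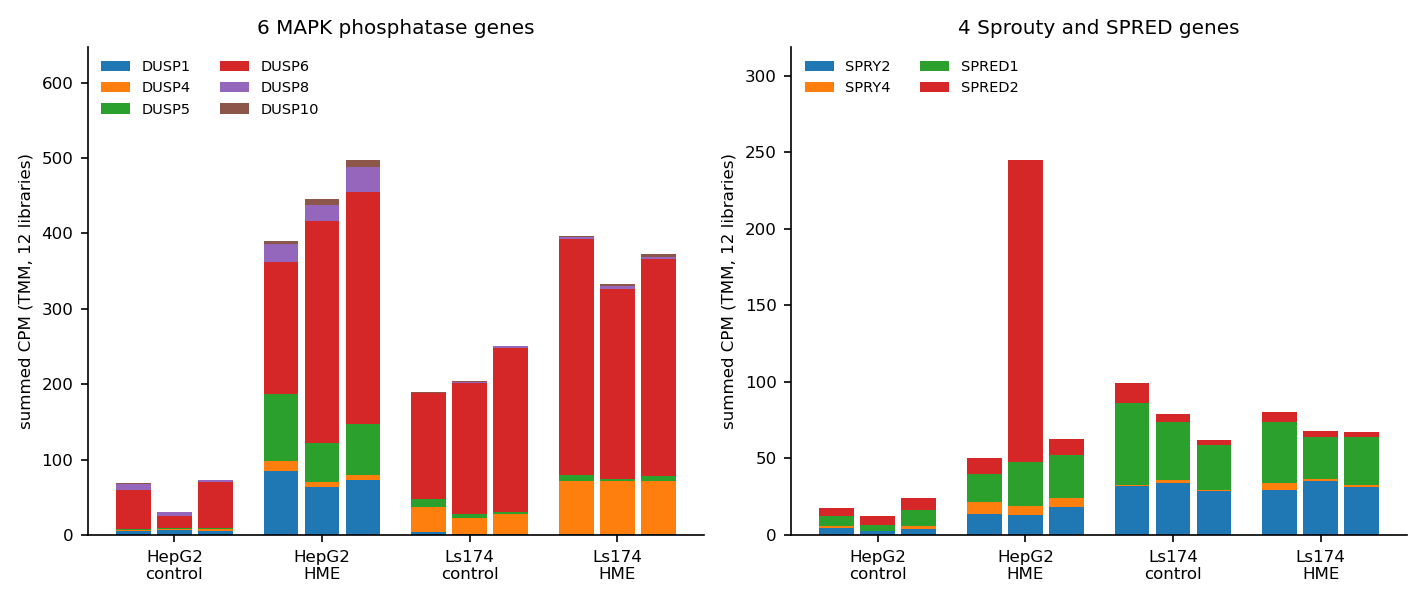
Summed level in CPM (y axis) of the 6 phosphatase genes (left) and the 4 Sprouty and SPRED genes (right) in each of 12 libraries (bars, grouped by line and treatment), divided by gene. The phosphatase sum lies between 31.0 and 73.1 CPM in HepG2 control and between 390.5 and 498 CPM in HepG2 HME libraries, and the SPRED2 part of HepG2 HME 2 stands out on the right.

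Further Sprouty, SPRED and MAPK phosphatase genes did not pass the test of HME in either line. Of all genes tested, 3.31% passed it in HepG2 and 1.18% in Ls174 cells. Of 8 such genes, 4 were tested in HepG2 and 5 in Ls174 cells, and edgeR and DESeq2 called none, with 1 gene at an unadjusted p under 0.05 in each line (STYX, a phosphatase-like protein without activity, at -1.38 and -0.81 on the log2 scale). DUSP9, an ERK phosphatase close to DUSP6, was at 456 ± 201 CPM in HepG2 control and 401 ± 81.1 CPM in HME libraries (log2 fold change -0.16, SE 0.37), and at 1.78 ± 3.09 CPM in Ls174 control cells (log2 difference of untreated lines -7.81, edgeR adjusted p = 0.00121). All 21 counts of the Ls174 controls lay in control 3, the library with liver transcripts, and without it the fitted difference was -13.24, which is set against 0 counts and depends on the prior count. Among 14 atypical dual-specificity phosphatases, 7 were tested in each line and 1 rose in HepG2 cells, where 2.77% of all genes tested rose. This was DUSP13 (7.27 to 39.5 CPM, log2 fold change 2.41, edgeR adjusted p = 0.0152), which did not pass without HME 1, HME 2 or HME 3 (adjusted p between 0.05003 and 0.0817). DESeq2 called 2 of the 7 in HepG2 cells, both higher, and 1033 over all genes. At the study's thresholds 3 were higher and 1 lower, against 22.2% of all genes tested passing either way. Neither tool called any of the 7 in Ls174 cells, with 1 at an unadjusted p under 0.05.

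Other brakes of the pathway rose in HepG2 cells in 2 cases. Of 17 further negative regulators of RAS and ERK signalling, 12 were tested, and 2.77% of all genes tested rose. RGS2, which inactivates G proteins of the Gq class, had 4 counts over the control and 110 over the HME libraries (log2 fold change 4.84, SE 0.54, edgeR adjusted p = 0.00220). ERRFI1, a feedback inhibitor of the EGF receptor, went from 20.5 ± 11.6 to 131 ± 24.4 CPM (log2 fold change 2.68, SE 0.46, adjusted p = 0.0140), and its adjusted p was 0.0605 and 0.0559 without HME 1 and HME 3. In Ls174 cells edgeR and DESeq2 called none of 14 tested, with 2 at an unadjusted p under 0.05. Over all genes tested in Ls174 cells, edgeR called 1.18%, DESeq2 called 434 and 12% passed the study's thresholds.

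Few kinases and adaptors of the cascades passed the test. Of 24 tested genes of the RAS to ERK cascade, 1 rose in HepG2 cells, the small GTPase gene RRAS2 (34.2 to 88.6 CPM, log2 fold change 1.38, SE 0.31, edgeR adjusted p = 0.0457), and this call was lost without any library but control 2 (adjusted p between 0.0954 and 0.159). The median log2 fold change of the 24 genes was 0.39, 8 had an unadjusted p under 0.05 and DESeq2 called 4. Over all 11343 genes tested in HepG2 cells, 2.77% rose by edgeR and DESeq2 called 1033. An unadjusted p under 0.05 with an absolute log2 fold change over 0.58 was found for 22.2% of them. Of 20 tested genes of the JNK and p38 cascades none was called by edgeR or DESeq2 in HepG2 cells, with 3 at an unadjusted p under 0.05. Without HepG2 control 2, edgeR called 3 of them, and 921 over all genes. Of 5 tested atypical MAPK and ERK5 genes none was called by either tool, with 2 at an unadjusted p under 0.05. In Ls174 cells edgeR and DESeq2 called none of the 22, 23 and 5 genes tested in these lists, with 1, 1 and 0 at an unadjusted p under 0.05. Of all genes tested in that line, edgeR called 1.18% and DESeq2 called 434.

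Of 14 tested transcripts known to respond to ERK signalling, 6 rose in HepG2 cells (5 without HME 3 and 10 without control 2) and none fell. Of all genes tested, 2.77% rose by this test. Over all genes 375 were called, against 95 without HME 3 and 921 without control 2. The median log2 fold change of the 14 was 1.61 against -0.04 over all genes tested. EGR1, HBEGF, LIF and FOS had mean control levels under the 3.83 CPM of the filter and passed it only with the HME libraries, so that this count and this median describe the 14 genes and no more. IER3, an early response gene, went from 71.7 ± 16.0 to 3441 ± 344 CPM (log2 fold change 5.60, SE 0.38, edgeR adjusted p = 0.00062). The transcription factor gene EGR1 went from 3.63 ± 2.16 to 179 ± 10.9 CPM (5.60, SE 0.51, adjusted p = 0.00101), and FOSL1, of the AP-1 family, from 9.85 ± 2.01 to 54.6 ± 6.97 CPM (2.49, SE 0.34, adjusted p = 0.00456). The growth factor gene HBEGF and the cytokine gene LIF had 10 and 7 counts over the control and 388 and 82 over the HME libraries (5.46 and 3.73, adjusted p = 0.00208 and 0.00925). LIF had an adjusted p of 0.0549 without HME 3. FOS had no count in the 3 HepG2 control libraries and 132 over the HME libraries, which is at least 48.9-fold higher against a floor of 3 counts over the group, and the median of the list was the same with FOS at that bound. In Ls174 cells 1 of 14 rose, IER3, from 267 to 914 CPM (log2 fold change 1.77, SE 0.31, adjusted p = 0.0392), a call that held without control 1 and was lost without any other library (adjusted p between 0.0942 and 0.274). Of these 14 genes in Ls174 cells, 6 had an unadjusted p under 0.05, DESeq2 called 2 and edgeR called 3 without control 1. Over all genes tested in Ls174 cells, edgeR called 1.18%, DESeq2 called 434 genes and edgeR called 979 without control 1. An unadjusted p under 0.05 with an absolute log2 fold change over 0.58 was found for 12% of them. The difference between lines passed for 4 of 16, where 0.644% of all genes tested passed. All 4 were lower in Ls174 cells: EGR1 (-4.82), IER3 (-3.80), LIF (-4.31) and FOSL1 (-2.75). Of these, EGR1 and IER3 passed in all 12 fits without 1 library, LIF in 2 and FOSL1 in 3.

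**Figure D5:**
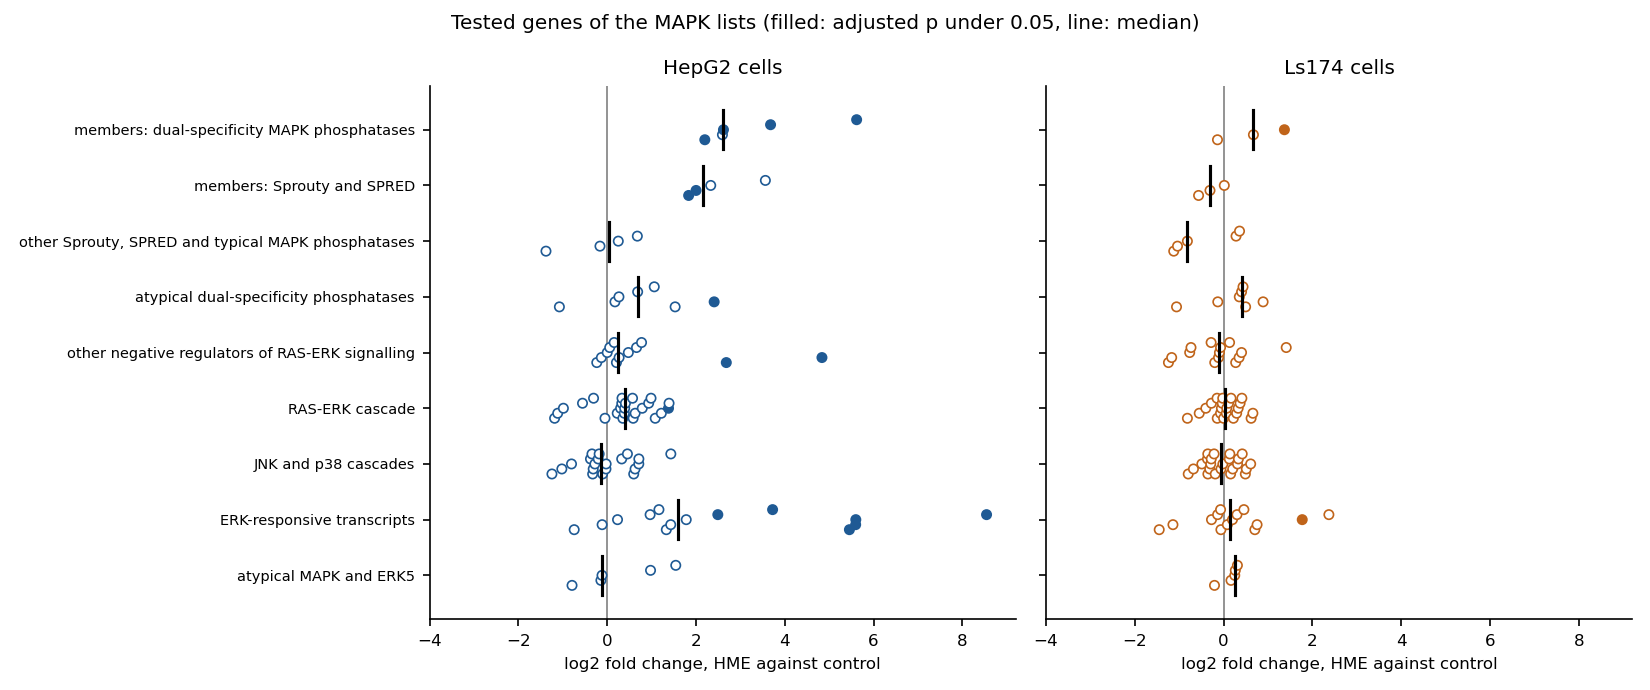
Log2 fold change of HME against control (x axis) for each tested gene (points) of 9 lists of MAPK genes (y axis) in HepG2 (left) and Ls174 cells (right), filled for an adjusted p under 0.05, with the median of each list as a line. In HepG2 cells the medians of the phosphatases (2.62), the Sprouty and SPRED genes (2.17) and the ERK-responsive transcripts (1.61) lie right of the other lists, and the rightmost point, FOS, has no count in control cells, so that its fitted place depends on the prior count.

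Across the 12 libraries the 10 genes followed more than 1 pattern. Pearson's r of log2 CPM was 0.94 between SPRY2 and SPRED1, 0.92 between SPRY2 and DUSP4 and 0.87 between SPRED1 and DUSP6, whereas it was 0.78 between DUSP1 and DUSP5, 0.83 between DUSP1 and DUSP8 and -0.45 between DUSP1 and DUSP4. These values describe 12 libraries that share 2 lines and 2 treatments, which set most of the variation, and are not independent observations. Among 13040 genes, the 3 most like DUSP1 by this measure were FLCN, RGCC and IL11 (r = 0.98 each), and those most like DUSP5 were PIM1, GABPB1 and SERTAD1 (r = 0.97, 0.97 and 0.96). PIM1, for example, was at 9.97 CPM in HepG2 control, 143 CPM in HepG2 HME, 19.2 CPM in Ls174 control and 22.5 CPM in Ls174 HME cells. The genes most like DUSP6 were GRB10, S100A11 and NKIRAS1, and those most like DUSP4 were ANKRD10, FHL2 and FAM110C (r between 0.96 and 0.98). DUSP8 was most like the mitochondrial-derived copies MTRNR2L10 and MTRNR2L1 and the small RNA pseudogene RNU6-37P (r = 0.98, 0.96 and 0.96), whose reads may be shared with near-identical copies. SPRY2 was most like NLRP1, ARHGAP8 and NELFA (r between 0.98 and 0.99).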

How the data were processed

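The authors prepared 3′ mRNA libraries from 3 control and 3 HME-treated cultures of each line, sequenced them on an Ion Torrent platform, aligned the reads to hg19 with HISAT2 (Bowtie2 and Trimmomatic are also named in the submitters' processing notes, with no version) and deposited whole-number counts per 3′ region without normalization. How reads with several alignments and strand were treated is not given in the sources used here. The files list 144910 regions of 57736 genes, and 23 regions belong to the 10 genes, with no overlap with regions of other genes. Of these genes, 55501 were matched by ID to GENCODE v44lift37 in the GRCh37 build of the files, and 99.9% of them lay at the annotated place.

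Each gene's count was the sum over its regions. Each line (6 libraries), the untreated lines (6 libraries) and the interaction (12 libraries) were fitted with edgeR 4.0.16 (filterByExpr by group with a minimum count of 10, TMM, quasi-likelihood F test, no covariate) in R 4.3.3, and p values were adjusted by the Benjamini-Hochberg method over all genes tested. Tests were two-sided, called means an adjusted p under 0.05, and the SE was derived from the F statistic. CPM used TMM factors of all 12 libraries, and correlations were computed on log2 CPM (prior count 2). Tables and figures were made with Python 3.11.15, pandas 2.3.3, numpy 2.4.6, scipy 1.17.1 and matplotlib 3.10.9. The fits were tested on simulated data.

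The 10 genes, the lists of MAPK genes and the markers were chosen with earlier results of these data known, so no list is independent evidence. Named are the 10 genes, the listed genes with an adjusted p under 0.05 in HepG2 cells, in Ls174 cells or in the interaction (up to 6 per list and comparison), and the 3 genes most correlated with each of the 10 that was called. Those of SPRED1 are not reported here. STYX, DUSP9, the collagen genes, LYZ, the SPRED2 region and the genes of untreated cells in the closing section were named after their values were seen. The alternatives were DESeq2 1.42.0, library-size and upper-quartile scaling, other filters, the largest region of each gene, a replicate block, fitting all libraries at once and leaving out each library. Leaving out the alternative SPRED2 region, or HepG2 control 2 and HME 2 together, was added after seeing the data.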

Additional observations from a re-analysis of the deposited data

Results flagged for a closer look

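For DUSP1 and DUSP5 the response to HME differed between the lines by the interaction test. The response of DUSP1 in Ls174 cells was lower than in HepG2 cells by a log2 difference of -4.01 (edgeR adjusted p = 0.0276), with 45 counts over the control and 522 over the HME libraries of HepG2 cells and 14 and 11 counts in Ls174 cells. The response of DUSP5 was lower by a log2 difference of -5.71 (edgeR adjusted p = 0.000985), with 11 and 486 counts in HepG2 and 52 and 49 counts in Ls174 cells.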

How the results depend on the processing

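Over the alternatives, 427 values of single genes kept their direction and their side of the threshold, 35 no longer passed, 16 newly passed and 10 changed sign. In HepG2 cells 6 of the genes were called, 10 with every gene of at least 1 count, 2 (of 2 tested) with at least 10 counts in every library, 8 with DESeq2, 9 in 1 fit of all 12 libraries and between 2 and 7 without 1 library. The 10 and the 9 include SPRED2 (edgeR adjusted p = 5.01e-13 and 0.0445), although 1 library carried its change. In Ls174 cells 1 was called, 0 in 1 fit of all 12 libraries and between 0 and 1 without 1 library, with 2 at an unadjusted p under 0.05 in the 12-library fit. For the interaction, 2 were called, 5 with DESeq2 and 5 with every gene of at least 1 count (SPRED2 among the latter), 0 (of 1 tested) with at least 10 counts in every library and between 1 and 3 without 1 library. Between untreated lines, 4 were called, and 1 (of 1 tested) with at least 10 counts in every library. Libraries with the same number were not paired, since the correlation of their deviations from the group means lay between -0.15 and 0.07. With the replicate block, 5, 0, 2 and 4 genes were called in these comparisons (2 in Ls174 cells at an unadjusted p under 0.05), and the counts over all genes were 349, 0, 37 and 1890. Over all genes, 375 were called in HepG2 cells, 1033 with DESeq2, 1407 with every gene of at least 1 count, 188 with at least 10 counts, 807 in 1 fit and between 95 and 921 without 1 library. In Ls174 cells 134 were called, 434 with DESeq2, 604 with at least 1 count and between 0 and 979 without 1 library. For the interaction 84 were called, 380 with DESeq2, 367 with at least 1 count, 46 with at least 10 counts, 49 by library size and between 17 and 143 without 1 library, and between untreated lines 2798 and 912 with at least 10 counts. Values that changed sign had not passed the test: in Ls174 cells DUSP5 between -0.47 and 0.38, SPRY2 between -0.0535 and 0.083 and SPRED2 between -0.96 and 0.20 without 1 library, and SPRY2 at -0.0199 by library size. The interaction of DUSP8 lay between -1.22 and 0.17 without 1 library, and SPRED2 between untreated lines between -0.66 and 0.47, and at -0.11 with the replicate block. The fewer genes tested set the counts under the strict filter, and the cause of the other changes was not tested. Depth limits the genes below the filter, DUSP10 in HepG2 cells and DUSP1, DUSP8, DUSP10 and SPRY4 in Ls174 cells, which had at most 26 counts over the libraries of an Ls174 group. With 3 libraries per group the p values measure the spread between these cultures only.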

Other observations

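Beyond the feedback inhibitors, other dual-specificity phosphatases and MAPK genes differed between untreated lines, and the genes named here were chosen after their values were seen. DUSP23, an atypical phosphatase, had no count in HepG2 control or HME libraries and 399 and 355 counts over Ls174 control and HME libraries. DUSP3, an atypical phosphatase that acts on ERK and JNK, had 910 counts over the HepG2 and 170 over the Ls174 controls (edgeR adjusted p = 0.000663). RPS6KA2, an ERK-activated kinase of the RSK family, had 2 and 245 counts in HepG2 and Ls174 controls, whereas its relative RPS6KA3 had 2173 and 313 counts (edgeR adjusted p = 0.00215).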
